A study of Mus musculus with 2 samples.

Results

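The genes described here are 40 genes of the cell cycle, chosen by symbol from a fixed list, of 55536 annotated gene rows in each library. They fall into 4 roles: 13 genes of DNA replication, 17 of mitosis, 8 G1 cyclins and cyclin-dependent kinases, and 2 inhibitors of those kinases. Their RNA was measured in the left cerebral cortex of 2 mice, both female and 10 days old, by sequencing of total RNA. The animals were of the strain B6CASTF1/J, the F1 hybrid of a laboratory mouse strain and the wild-derived CAST strain. They were untreated as far as the labels say, and they form 1 group with no other genotype, age, sex or treatment beside it. The labels name them as females 03 and 04, under a single donor entry, and their libraries are called library 1 and library 2 below. Per the labels, 300 ng of RNA went into each library, together with synthetic control RNAs (ERCC spike-ins).

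A dividing cell passes from a growth phase (G1) through DNA synthesis (S) to mitosis (M). D-type cyclins with Cdk4 or Cdk6 release E2F transcription factors from the retinoblastoma protein, and E2F then drives the genes of replication. The genes of mitosis are switched on later, by complexes that bind CHR and CCAAT elements in their promoters, and the inhibitors p21 and p27 hold the kinases back. In the postnatal cortex most neurons have left the cycle for good, while precursors of oligodendrocytes and astrocytes, microglia and vessel cells still divide. Some cycle genes, such as cyclin D2 and p27, also act in cells that no longer divide.

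The gene rows held 29867112 expected reads in library 1 and 31031340 in library 2, and ERCC spike-ins took 0.413% and 0.401% of all reads. Levels are in TPM, a share of all transcripts corrected for length, so that genes can be compared with each other within a library. Values are given as library 1 and library 2 or as mean ± SD (n = 2 animals throughout). An exact two-sided test of 2 animals cannot go below p = 0.5, so no p-value was computed. A count of 0 allows up to 3 reads, which at a transcript length of 1 kb is 0.16 TPM in library 1 and 0.147 TPM in library 2, and all such limits and intervals cover counting error only. The tissue label was checked with 7 genes of cerebral cortex, of which Bcl11b was lowest (32.6 and 27.7 TPM) and the glutamate transporter Slc17a7 highest (522 and 501 TPM). Of 5 genes of cerebellum and olfactory bulb, Atoh1, Barhl1, En2 and Tbx21 had 0 to 6 reads in either library. The fifth, Neurod1, was detected at 10.25 and 8.30 TPM. In whole tissue, fewer cells of a type and less RNA per cell cannot be told apart, which holds for every level below.

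The roles differed in median level, with the G1 genes and inhibitors highest and the genes of mitosis lowest. The median of the 17 mitosis genes was 1.91 TPM in library 1 and 1.93 TPM in library 2. The 13 replication genes had medians of 4.76 and 4.37 TPM, the 8 G1 cyclins and kinases 9.80 and 9.45 TPM, and the 2 inhibitors 19.995 and 18.3 TPM. The place of the inhibitors rests on these 2 genes alone, and 6 other inhibitors described below had medians of 2.10 and 1.90 TPM. The order of the medians, inhibitors, G1 genes, replication, mitosis, was the same in both libraries. The differences between medians exceeded their SD between animals, 0.014 to 1.23 TPM, which does not measure the spread among genes of a role. Gene by gene the roles overlapped. Replication ran from Cdc6 at 0.16 and 0.31 TPM to Pcna at 28.2 and 28.7 TPM, above both inhibitors. The G1 genes Cdk2 (2.14 and 2.34 TPM) and Ccne2 (3.01 and 1.92 TPM) lay within the range of the mitosis genes. Beside the role medians, the median over all 22015 protein-coding genes was 4.04 and 3.70 TPM. Of the 40 members, 37 reached 1 TPM in both libraries, or 92.5%, against 59.1% of all protein-coding genes. The members below that level in at least 1 library were Bub1, Cenpf and Cdc6. Only 7 members had a mean of 10 TPM or more, 31 lay between 1 and 10 TPM, and 22 of the 40 lay below the median protein-coding gene.

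**Figure D1:**
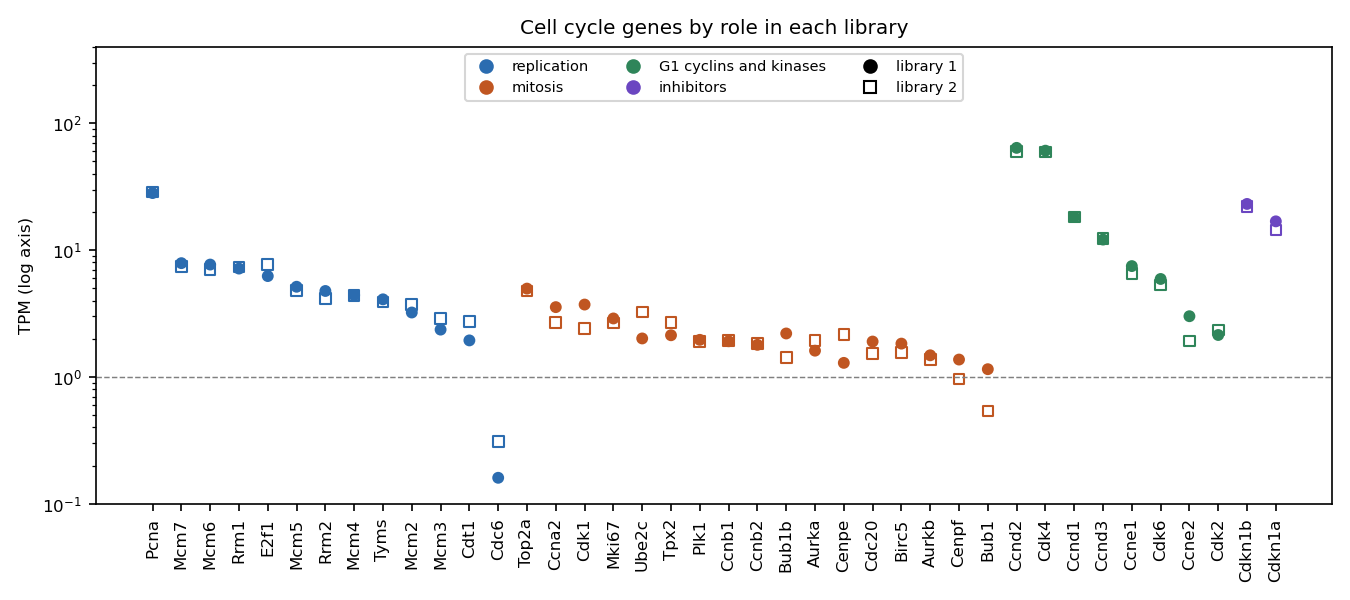
TPM on a log axis of each of the 40 genes in library 1 (filled circles) and library 2 (open squares), coloured by role and ordered by mean level within a role; the dashed line marks 1 TPM. Cyclin D2 and Cdk4 stand highest at about 60 TPM, the mitosis genes lie between 0.54 and 4.97 TPM, and Cdc6 is lowest.

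Motifs in the promoters of the members were compared by role. RefSeq promoters (build GRCm38.p6, 250 bases before to 50 after the start) were at hand for 33 members and 27025 genes, and 3 motifs were searched on both strands. These were the CHR element (TTTGAA or TTCGAA), the CCAAT box (CCAAT), and an E2F site (TTTCCCGC, TTTCGCGC, TTTGCCGC or TTTGGCGC). A match is a description of the letters and not evidence of binding. CHR and CCAAT together were found in 11 of 14 mitosis promoters (78.6%), in 2 of 12 replication promoters, in 0 of 5 G1 promoters and in 9.65% of all genes. An E2F site was found in 6 of 12 replication promoters (Mcm3, Mcm5, Mcm6, Mcm7, Cdc6 and Cdt1), against 1 of 14 in mitosis (Cdk1), 1 of 5 among the G1 genes (Cdk2) and 2.61% of all genes. Taken alone, CHR was in 11 of 14 mitosis promoters and 21.7% of all genes, and CCAAT in 13 of 14 and 41.1%. CCAAT was also in 8 of 12 replication promoters, so that the roles differed less in CCAAT than in CHR and E2F sites. Of the 89 matches in members, 2 overlapped a match to another motif, both in Mcm7.

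The following sequences show these patterns, each as the 250 bases before the start, read 5′ to 3′ on the gene's strand, with every match in capitals. They were picked after the matches were seen. Top2a (chr11:99024190-99024439, minus strand) and Mki67 (chr7:135716380-135716629, minus strand) show the CHR and CCAAT pattern of mitosis genes, and Cdk1 (chr10:69352913-69353162, minus strand) adds an E2F site to it. Mcm6 (chr1:128359706-128359955, minus strand) and Cdc6 (chr11:98907901-98908150, plus strand) are replication promoters with E2F sites, those of Mcm6 including TTTGGCGC overlapped by TTTCGCGC on the other strand, which reads GCGCGAAA here. Cdk4 (chr10:127063285-127063534, plus strand) is a G1 promoter in which none of the motifs was found.
Top2a: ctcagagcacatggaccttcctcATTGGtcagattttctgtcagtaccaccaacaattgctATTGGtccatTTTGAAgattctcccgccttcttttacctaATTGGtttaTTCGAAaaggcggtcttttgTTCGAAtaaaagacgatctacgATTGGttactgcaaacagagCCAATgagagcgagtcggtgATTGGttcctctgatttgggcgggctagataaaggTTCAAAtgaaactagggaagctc
Mki67: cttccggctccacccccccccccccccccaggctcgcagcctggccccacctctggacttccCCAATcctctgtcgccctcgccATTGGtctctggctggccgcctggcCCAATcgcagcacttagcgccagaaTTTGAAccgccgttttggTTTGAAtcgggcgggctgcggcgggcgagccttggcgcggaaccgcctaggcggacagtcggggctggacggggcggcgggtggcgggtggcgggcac
Cdk1: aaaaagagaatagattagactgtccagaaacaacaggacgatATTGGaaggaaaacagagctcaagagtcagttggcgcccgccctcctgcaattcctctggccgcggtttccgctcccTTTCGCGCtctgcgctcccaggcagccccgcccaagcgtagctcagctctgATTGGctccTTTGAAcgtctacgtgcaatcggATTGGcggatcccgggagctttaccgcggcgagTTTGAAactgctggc
Mcm6: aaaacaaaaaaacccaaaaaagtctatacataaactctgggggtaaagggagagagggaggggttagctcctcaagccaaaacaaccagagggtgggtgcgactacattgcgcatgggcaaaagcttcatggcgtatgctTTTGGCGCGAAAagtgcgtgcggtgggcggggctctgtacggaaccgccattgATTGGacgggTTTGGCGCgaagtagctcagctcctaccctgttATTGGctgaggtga
Cdc6: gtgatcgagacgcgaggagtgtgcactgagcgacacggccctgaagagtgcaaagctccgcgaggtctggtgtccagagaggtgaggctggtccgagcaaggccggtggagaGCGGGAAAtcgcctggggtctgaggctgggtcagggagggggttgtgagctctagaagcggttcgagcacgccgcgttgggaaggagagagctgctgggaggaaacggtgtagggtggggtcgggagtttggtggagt
Cdk4: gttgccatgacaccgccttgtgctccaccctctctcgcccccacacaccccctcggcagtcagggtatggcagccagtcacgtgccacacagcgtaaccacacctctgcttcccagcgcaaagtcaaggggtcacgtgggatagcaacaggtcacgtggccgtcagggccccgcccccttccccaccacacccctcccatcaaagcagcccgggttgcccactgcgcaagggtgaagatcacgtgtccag

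Among the G1 genes, the cyclin Ccnd2 and the kinase Cdk4 were highest in the TPM of all transcripts. Ccnd2 (ENSMUSG00000000184.12, mm10 chromosome 6, 127125162 to 127152193, minus strand), which encodes cyclin D2, was at 64.1 TPM in library 1 and 59.6 TPM in library 2, and was the highest of the 40 members on that scale. In the alignment-free tables Ccnd2 (83.4 and 79.0 TPM) was above Cdk4 (80.9 and 86.6 TPM) in library 1 and below it in library 2. Ccnd2 exceeded Ccnd1 (18.2 and 18.3 TPM) by 3.37-fold (log2 ratio 1.75 ± 0.077 SD) and Ccnd3 (12.1 and 12.4 TPM) by 5.02-fold (2.33 ± 0.094). In both pairs the deposited credible intervals lay apart in both libraries, while those of Ccnd1 and Ccnd3 overlapped. Reads per kilobase of merged exons, a scale that ignores how reads divide among transcripts, were also computed. They were scaled to the summed reads of all protein-coding genes in the same library. All values per kilobase given here and below are therefore relative levels, not plain reads per kilobase. By this measure Ccnd2 was again highest of all members, at 18.0 and 16.7. On that scale Ccnd2 exceeded Ccnd1 by a log2 ratio of 1.02 and Ccnd3 by 3.00.

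Cdk4 (ENSMUSG00000006728.12, chromosome 10, 127063534 to 127067920, plus strand), the partner kinase of D-type cyclins, was at 60.9 and 59.3 TPM. It exceeded its relative Cdk6 (5.92 and 5.31 TPM) by 10.5-fold (log2 ratio 3.40 ± 0.082). It exceeded Cdk2, the kinase that acts with E-type cyclins (2.14 and 2.34 TPM), by 25.7-fold (4.69 ± 0.11). Most of the Cdk4 signal was not in transcripts annotated as protein-coding, as described with the transcripts below, and in protein-coding transcripts alone the log2 ratio of Cdk4 was 0.95 over Cdk6 and 3.01 over Cdk2. There Cdk4 was at 10.5 and 11.1 TPM, below Ccnd1 (14.3 and 13.1 TPM) and Ccnd3 (11.45 and 11.55 TPM). In scaled reads per kilobase of merged exons Cdk4 was at 10.9 in both libraries, and its log2 ratio was 2.51 over Cdk6 and 3.79 over Cdk2. The E-type cyclins, which start S phase with Cdk2, differed from each other: Ccne1 was at 7.48 and 6.53 TPM and Ccne2 at 3.01 and 1.92 TPM. Ccne1 was the higher by 2.83-fold (1.5 ± 0.30), with credible intervals apart in both libraries. Ccnd1, Ccne2 and Cdk4 share exons with genes on the opposite strand (LTO1 over 23.4%, Ints8 over 17.4% and Tspan31 over 19.7% of their exon bases), and the labels and headers do not say whether the counting used strand, so that these 3 levels are uncertain. The same holds for Ccna2, which shares 12.5% of its exon bases with Exosc9 (715 and 658 reads), and Mcm7, which shares 7.25% with Ap4m1 (528 and 552 reads).

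Both inhibitors were among the higher members. Cdkn1b (ENSMUSG00000003031.14, chromosome 6, 134920401 to 134925513, plus strand), which encodes p27, was at 23.1 and 22.1 TPM. Cdkn1a, which encodes the p53 target p21, was at 16.9 and 14.5 TPM. Cdkn1b exceeded Cdkn1a by 1.44-fold (log2 ratio 0.53 ± 0.11) and stood below Ccnd2 by 2.73-fold (log2 ratio of Cdkn1b over Ccnd2 -1.45 ± 0.025), with intervals apart in both libraries for both pairs. All TPM of both inhibitors was in protein-coding transcripts.

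The replication genes were led by Pcna, the sliding clamp of DNA polymerases. Pcna (ENSMUSG00000027342.14, chromosome 2, 132249162 to 132253314, minus strand) was at 28.2 and 28.7 TPM, more than 3 times any other gene of the role. It exceeded Mki67, the proliferation marker, by 9.91-fold (log2 ratio 3.31 ± 0.095). The processed pseudogene Pcna-ps2 had 70.1 and 59.8 reads beside 725.9 and 808.2 for Pcna, and reads of near-identical copies can be divided wrongly between them. The 5 other pseudogene rows named for a member (Ccnb1-ps, Ccnb2-ps, Ccnd3-ps, Pcna-ps1 and Tyms-ps) had at most 3.46 reads.

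The 6 subunits of the MCM helicase, which form 1 ring of equal parts, were measured at unequal levels. Mcm3 was lowest at 2.36 and 2.89 TPM, followed by Mcm2 at 3.22 and 3.72 and Mcm4 at 4.41 and 4.37 TPM. Mcm5 was at 5.14 and 4.80, Mcm6 at 7.69 and 7.03, and Mcm7 highest at 7.89 and 7.39 TPM. The order of the 6 was the same in both libraries, and the highest exceeded the lowest by 3.34-fold and 2.56-fold; Mcm6 and Mcm7 differed by less than the SD between animals (0.47 and 0.35 TPM). The order depended on the scale. In protein-coding transcripts Mcm6 (7.35 and 7.03 TPM) exceeded Mcm7 (6.28 and 5.78 TPM). In scaled reads per kilobase of merged exons Mcm6 was highest (3.49 and 3.46) and Mcm2 lowest (1.05 and 1.17). Mcm7 also carries the microRNA genes Mir25, Mir93 and Mir106b within it, all at 0 reads here.

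Among the members, Cdt1 and Cdc6, which help to load this helicase, were low. Cdt1 was at 1.94 and 2.74 TPM, from 76 and 98 reads. Cdc6 (ENSMUSG00000017499.15, chromosome 11, 98907801 to 98923940, plus strand) was the lowest of the 40 members at 0.16 and 0.31 TPM, from 10 and 16 reads. Cdt1 exceeded Cdc6 by 7.37-fold on the scale of TPM + 0.1, which understates the ratio to so low a gene (log2 ratio of Cdc6 over Cdt1 -2.88 ± 0.13). The ribonucleotide reductase subunits, which make DNA precursors, were at 7.15 and 7.35 TPM for Rrm1 and 4.76 and 4.17 TPM for Rrm2, a 1.61-fold difference (0.69 ± 0.16). Per kilobase of merged exons this order turned, with a log2 ratio of -0.44. Tyms, the thymidylate synthase, was at 4.09 and 3.89 TPM, and E2f1, the transcription factor, at 6.24 and 7.69 TPM.

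The mitosis genes formed the group with the lowest median. Top2a, which untangles chromosomes, was highest at 4.97 and 4.76 TPM. Mki67 (ENSMUSG00000031004.8, chromosome 7, 135689784 to 135716361, minus strand) was at 2.89 and 2.67 TPM from 539 and 545 reads, and Top2a exceeded it by 1.72-fold (log2 ratio 0.79 ± 0.035). That order turned per kilobase of merged exons (-0.57) and came to 0.048 in protein-coding transcripts alone. The mitotic kinase Cdk1 was at 3.72 and 2.41 TPM and its cyclin Ccna2 at 3.55 and 2.69 TPM, both higher in library 1 in TPM. Their reads were 69 and 65 for Cdk1 and 159 and 145 for Ccna2, and the 95% counting intervals of both ratios between libraries spanned 1. The B-type cyclins Ccnb1 (1.91 and 1.94 TPM) and Ccnb2 (1.79 and 1.84 TPM) had overlapping credible intervals, with a log2 ratio of 0.081 ± 0.012. This ratio was -0.30 in protein-coding transcripts and -1.04 per kilobase of merged exons.

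The other mitosis genes lay between 0.54 and 3.26 TPM. Among the kinases of the spindle, Plk1 was at 1.96 and 1.91 TPM, Aurka at 1.61 and 1.93 and Aurkb at 1.48 and 1.37 TPM. The intervals of Aurka and Aurkb overlapped in both libraries. The chromosomal passenger Birc5 (1.83 and 1.56 TPM) and the spindle factor Tpx2 (2.13 and 2.68 TPM) were in the same range. Of the anaphase regulators, Cdc20, which activates the anaphase-promoting complex, was at 1.90 and 1.53 TPM. Ube2c, the ubiquitin-conjugating enzyme of that complex, was at 2.01 and 3.26 TPM. The checkpoint kinase Bub1 (1.15 and 0.54 TPM) and its relative Bub1b (2.20 and 1.42 TPM) had overlapping intervals in both libraries. The kinetochore proteins Cenpe (1.29 and 2.16 TPM) and Cenpf (1.37 and 0.96 TPM) moved in opposite directions between the libraries in TPM. Over all members, 16 pairs of related genes were compared within a library; each had the same sign in both libraries, and in 11 the credible intervals lay apart in both. For 5 members (Mcm2, Ccnd3, Bub1, Aurkb and Cenpe) the TPM lay outside its own deposited credible interval in at least 1 library, as with Ccnd3, at 12.1 and 12.4 TPM beside intervals of 13.6 to 18.8 and 13.8 to 18.7 TPM.

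The 2 animals were then compared gene by gene, on expected reads scaled by TMM. Of the 39 members that averaged at least 20 reads, 1 was 1.5-fold or more apart, against 6.12% of all 16459 genes with such counts. That member was Ube2c (ENSMUSG00000001403.13, chromosome 2, 164769898 to 164778822, plus strand), with 34 and 58 reads, a ratio of library 2 over library 1 of 1.67 (95% exact conditional binomial interval 1.08 to 2.64). Cdc6, with fewer reads than the minimum, had a ratio of 1.55 (0.67 to 3.88). Intervals away from 1 were found for 4 members, against 28.5% of all genes with such counts: E2f1 with 308 and 415 reads (1.33), Mcm3 with 103 and 141 reads (1.35), Ube2c, and Ccnd2 with 4226 and 4077 reads (0.949). The first 3 were higher in library 2 and Ccnd2 was lower. The width of such an interval depends on the read count, and members and all genes were not matched for it. The median size of the log2 ratio was 0.11 among members and also 0.11 over all genes.

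**Figure D2:**
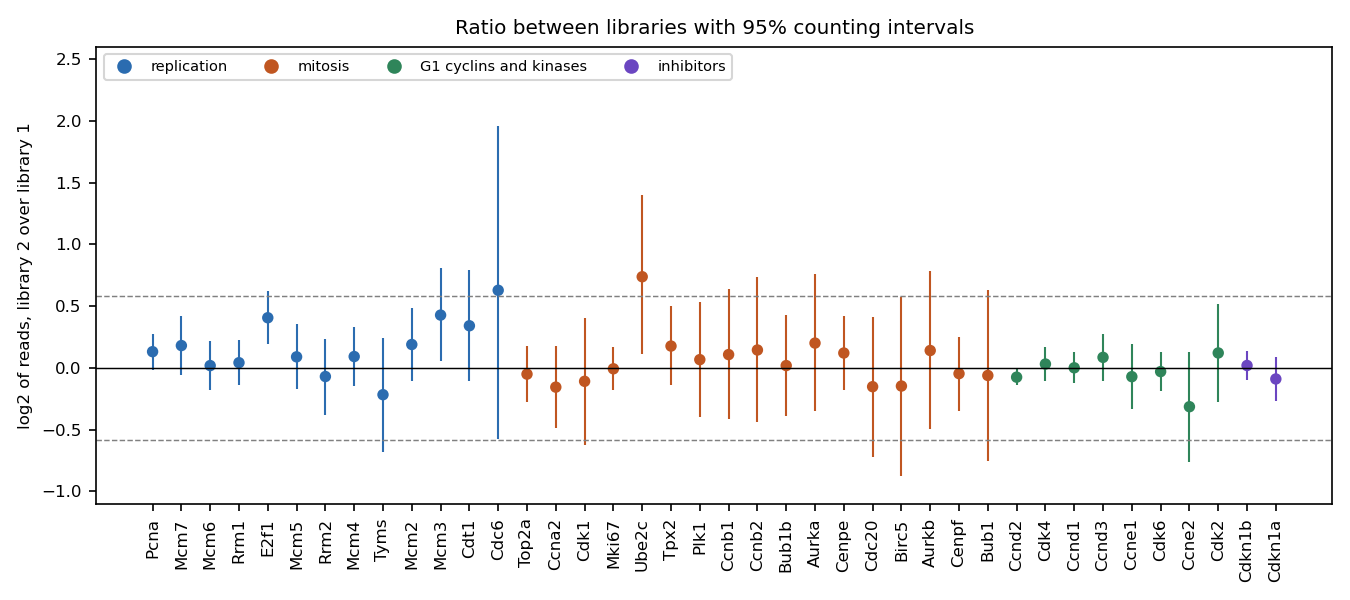
Log2 ratio of TMM-scaled reads of library 2 over library 1 for each of the 40 genes, with 95% counting intervals as bars; dashed lines mark 1.5-fold. Ube2c and Cdc6 lie beyond 1.5-fold, and the interval of Cdc6 spans 0.

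The reads were also summed by role. The summed reads of replication were 3365 and 3752, a log2 ratio of 0.13 (interval 0.066 to 0.20), and 10 of the 12 replication genes with 20 reads or more were higher in library 2, against 53.6% of all protein-coding genes with such counts. The 2 replication genes lower in library 2 were Rrm2 and Tyms. Mitosis had a log2 ratio of 0.023 (-0.063 to 0.11), the G1 genes -0.039 (-0.085 to 0.0074) and the inhibitors -0.014 (-0.11 to 0.082). Over all protein-coding genes the summed log2 ratio was 0.028, and the median of the ratios per gene, at 20 reads or more, was 0.012. The replication ratio fell to 0.055 in the alignment-free counts. Per gene, the median log2 ratio was 0.11 for the 12 replication members with 20 reads or more. Other replication genes, in lists described below, had lower medians, and their summed ratios were not computed. Their median log2 ratio was -0.12 for 16 genes of origin licensing and firing and 0.022 for 22 of the replication fork. For markers of cell types that can still divide, the median log2 ratio was 0.15 for 5 genes of oligodendrocyte precursors, 0.10 for 5 of astrocytes, 0.020 for 8 of neural progenitors and neuroblasts, 0.0041 for 5 of microglia and -0.021 for 5 of endothelium, and their part in the ratio of replication was not tested.

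In TPM the libraries looked further apart than in reads. By TPM 6 members were 1.5-fold or more apart, against 9.06% of all genes at the same read minimum: Bub1 (2.13-fold), Cenpe (1.67-fold), Ube2c (1.62-fold), Ccne2 (1.57-fold), Bub1b (1.55-fold) and Cdk1 (1.54-fold). For Bub1 the reads were 38 and 37, while the effective length by which they were divided was 1759 and 3322 bases. In library 1, 2.90 reads of Bub1 were assigned to the 438-base transcript Bub1-205 and gave it 0.46 TPM, close to the 0.50 TPM of the full Bub1-201 from 31.3 reads. In Bub1b, 4.01 reads on the 385-base transcript Bub1b-203 gave 0.75 TPM of the 2.20 in library 1, and Bub1b-201 alone was at 1.45 and 1.42 TPM. The protein-coding transcript Cdk1-202 was at 2.52 and 2.29 TPM, and Cenpe-201 at 1.24 and 1.20 TPM. The coding transcripts just named were closer between the libraries than the genes' total TPM. Over protein-coding genes with 20 reads or more the median log2 ratio was -0.096 in TPM and 0.012 in TMM-scaled reads. The calls of 1.5-fold in TPM were made without removing that shift. Ccne2, Bub1b and Cdk1, with log2 ratios of -0.65, -0.63 and -0.63 in TPM, lay just past 1.5-fold in the direction of the shift.

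**Figure D3:**
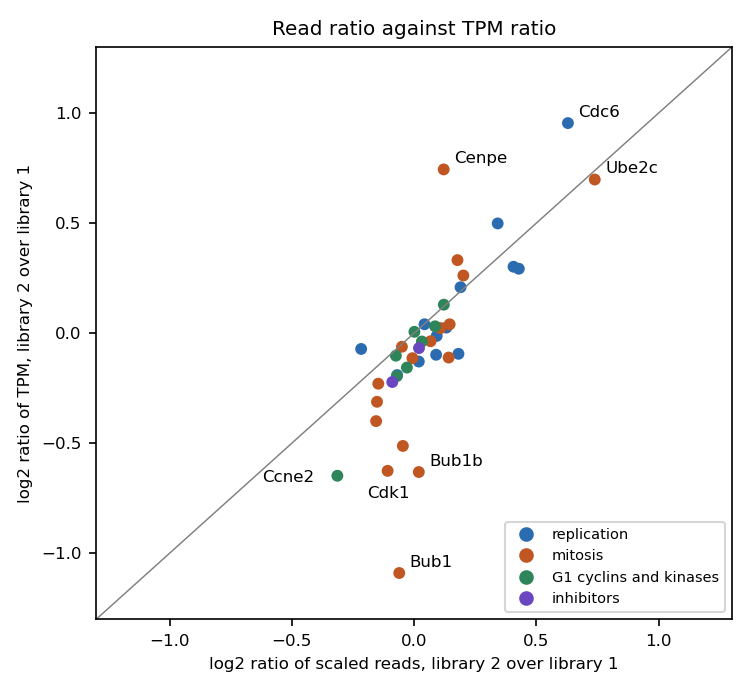
Log2 ratio of TPM against log2 ratio of TMM-scaled reads, library 2 over library 1, for the 40 genes by role, with the line of equality; genes past 1.5-fold in TPM are named. Bub1, Bub1b, Cdk1 and Cenpe lie near 0 in reads and beyond 1.5-fold in TPM, whereas Ube2c is beyond 1.5-fold in both.

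Transcripts were then compared for the 37 members detected in both libraries. In 34 of them the leading transcript was protein-coding in both libraries, and in 32 the same transcript led in both. The median share of TPM in protein-coding transcripts was 94.1% and 91.4%, against 89.8% and 91.2% over 13003 detected protein-coding genes. The exceptions in type were Cdk4, Cdk2 and Tyms. Cdk4 and Tyms were below 50% coding in both libraries, as were 7.98% of the detected protein-coding genes.

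Cdk4 had 17.3% and 18.8% of its TPM in protein-coding transcripts. Its retained-intron transcripts held 62.6% and 60.6%, led by the 468-base Cdk4-209 with 37.1% and 39.5%, and Cdk4-208, annotated for nonsense-mediated decay, held 20.2% and 20.6%. The shares differed by under 3 percentage points between the animals, and the alignment-free tables also led with Cdk4-209 (33.2% and 35.9%). Cdk2 had 56.7% and 28.3% in retained introns, with a different leading transcript in each library. For Tyms the coding share was 46.1% and 10.8%, but 86.2% and 79.8% in the alignment-free tables, so that its division among transcripts depends on the quantification. Its read count does too, with 87 and 76 expected reads beside 417.5 and 274.4 estimated counts in the alignment-free tables. Pcna was 94.1% and 94.98% coding in the alignment-based tables, and in the alignment-free tables Pcna-201 held 53.4% and 54.5% with the 589-base Pcna-203 at 45.3% and 44.8%.

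**Figure D4:**
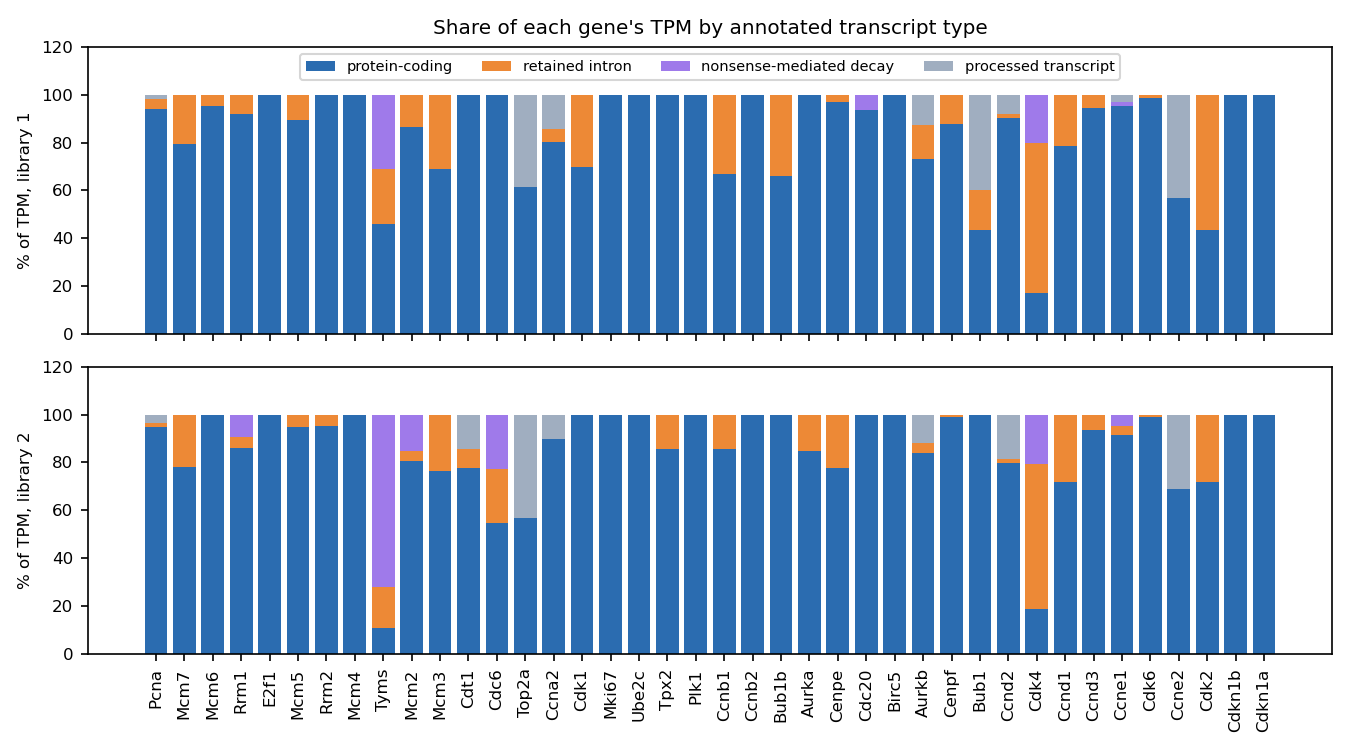
Percent of each gene's TPM in protein-coding, retained-intron, nonsense-mediated-decay and processed transcripts, as stacked bars for library 1 (top) and library 2 (bottom), genes in the order of the plot of TPM by role. Cdk4 and Tyms are mostly non-coding in both libraries; Bub1, Bub1b and Cdk1 have non-coding shares in library 1 alone.

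The rest of the pathway was read from 8 lists of other cell cycle genes, with 127 genes in all. Their median level was 4.36 TPM, and 105 reached 1 TPM in both libraries, against 59.1% of all protein-coding genes. Between the animals, 4 of 123 genes with 20 reads or more were 1.5-fold or more apart, against 6.12% of all genes with such counts. Those 4 were Tk1 (28 and 46 reads), Mybl2 (26 and 46), Cdca3 (59 and 36) and Cdc25c (47 and 27), named after their values were seen.

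In origin licensing and firing, 12 of 17 genes were detected, with a median of 2.32 and 2.21 TPM. The origin recognition subunits Orc4 (34.7 and 27.0 TPM), Orc3 (21.3 and 19.4) and Orc6 (21.5 and 19.0) were highest, while Orc1 had 15 and 6 reads (0.49 and 0.10 TPM) and was lowest. Ticrr (0.50 and 0.43 TPM), Gins3 (0.64 and 0.98), Mcm10 (1.26 and 0.99) and Gins2 (1.42 and 0.97) were also under 1 TPM in at least 1 library. At the replication fork 20 of 22 genes were detected, with a median of 5.22 and 4.51 TPM. The clamp loader Rfc2 (39.9 and 34.1 TPM), the single-strand binding protein Rpa1 (20.9 and 19.7) and Dut (19.4 and 18.7) led that list, and Chaf1b was at 1.16 and 0.93 TPM.

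In the list of E2F factors, pocket proteins and the DREAM complex, 14 of 18 were detected, with a median of 7.67 and 6.60 TPM. The E2F partner Tfdp1 was highest (32.1 and 29.6 TPM), followed by the retinoblastoma gene Rb1 (18.7 and 16.8) and its relative Rbl2 (15.8 and 12.4). The proliferation factor Mybl2 (0.39 and 0.76 TPM) was lowest, and E2f2, E2f7 and E2f8 stayed under 1 TPM in both libraries. Of 6 other inhibitors, 3 were detected, with a median of 2.10 and 1.90 TPM over the 6. Cdkn2d, an inhibitor of Cdk4 and Cdk6, was at 36.5 and 37.4 TPM, above Cdkn1b, with Cdkn1c at 7.47 and 8.43 and Cdkn2c at 2.92 and 2.85 TPM. Cdkn2b was at 1.28 and 0.95 TPM and Cdkn3 at 0.93 and 0.94 TPM. Cdkn2a was lowest, with 4 and 6 reads.

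Of the spindle, kinetochore and cytokinesis genes 20 of 27 were detected, with a median of 1.99 and 2.08 TPM, beside 1.91 and 1.93 TPM for the mitosis members. The condensin subunit Ncapd2 (16.1 and 13.0 TPM), Incenp (8.86 and 7.68) and Racgap1 (7.71 and 6.32) were highest and the cohesin protector Sgo1 (0.40 and 0.45) lowest. Kif2c, Kif4, Ndc80, Spc24, Nusap1 and Ttk also fell below 1 TPM in at least 1 library. Mitotic entry and exit stood higher in its median, at 16.6 and 17.0 TPM with 24 of 25 detected. Its genes ran from 1.04 to 144 TPM in mean level. Its leaders were the anaphase-promoting complex subunits Anapc5 (151 and 137 TPM) and Anapc11 (54.2 and 54.3) and the ubiquitin ligase subunit Fbxw7 (109 and 109). Fzr1, which activates the anaphase-promoting complex in resting cells, was at 46.7 and 45.9 TPM, beside 1.90 and 1.53 TPM for its mitotic counterpart Cdc20; Fzr1 was singled out after its values were seen. Espl1 was lowest (1.01 and 1.07 TPM) and Cdc25c was at 1.42 and 0.70 TPM. Fbxo5 (1.33 and 1.09 TPM), Cks2 (2.25 and 2.22) and Skp2 (2.98 and 2.77) of that list also lay within the range of the mitosis members. They were picked after their values were seen.

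The neuronal kinase Cdk5, which carries the family name but acts in postmitotic neurons, exceeded every member. Cdk5 was at 73.0 and 70.7 TPM and its activators Cdk5r1 and Cdk5r2 at 162 and 154 and at 237 and 272 TPM. All 9 genes of the p53 list were detected, with a median of 17.1 and 19.1 TPM. Zmat3 (43.7 and 39.5 TPM), Bax (42.4 and 44.5) and Ccng1 (23.0 and 22.3) were highest, and Gadd45a (2.72 and 2.35) was lowest, beside 16.9 and 14.5 TPM for the member Cdkn1a.

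**Figure D5:**
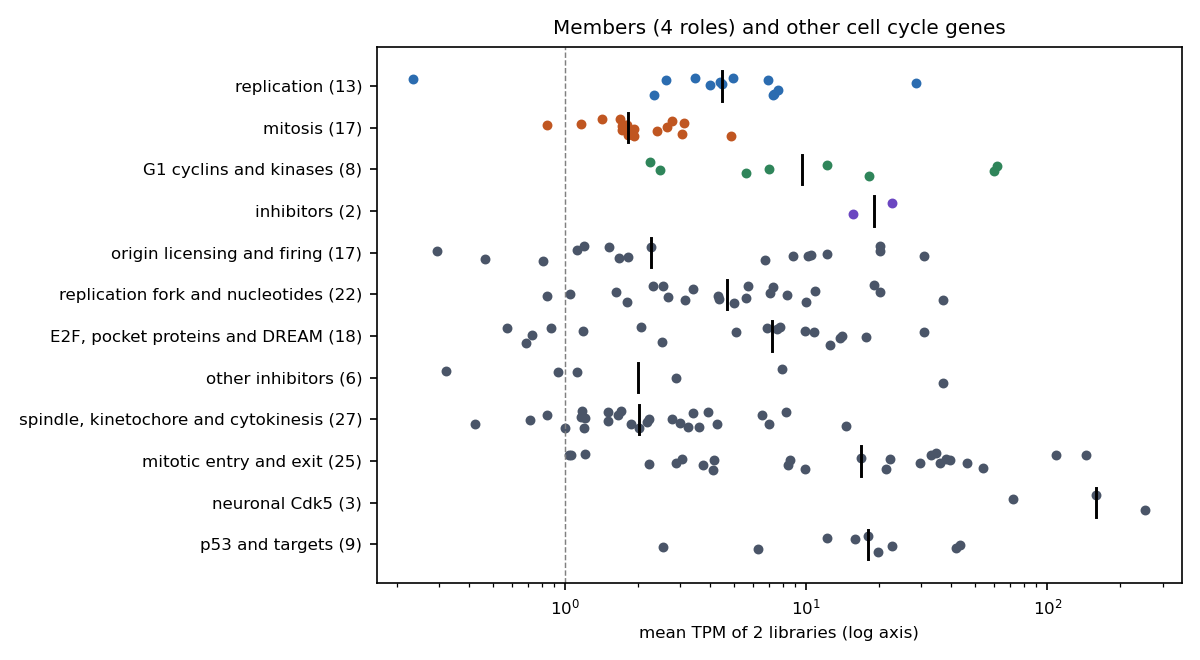
Mean TPM of the 2 libraries on a log axis for each gene of the 4 roles (coloured) and of 8 other lists (grey), with the number of genes in parentheses; the vertical bar in each row is the list's median and the dashed line marks 1 TPM. The mitosis role and the spindle list lie furthest left among the lists with over 10 genes, and the mitotic entry and exit list reaches over 100 TPM.

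Markers of the cell types that could hold these transcripts were present, and their part in the members' levels was not tested. Neurons had all 4 genes detected (summed level 1874 and 1853 TPM). Oligodendrocyte precursors had all 5 genes detected (summed level 118 and 115 TPM), microglia all 5 (91.3 and 86.8 TPM), endothelium all 5 (78.6 and 75.9 TPM) and astrocytes all 5 (325 and 311 TPM). Of 9 genes of neural progenitors and neuroblasts, 8 were detected, with a summed level of 88.9 and 81.5 TPM, led by Hes5 (30.4 and 25.3 TPM), Sox2 (19.6 and 17.8) and Dlx1 (13.95 and 12.8). Eomes, the defining gene of intermediate progenitors of cortical neurons, had 8 and 6 reads (0.14 and 0.11 TPM). Of 5 blood genes, 2 were detected, the globin Hbb-bs (240 and 282 TPM) and Alas2 (3.74 and 4.17); Ptprc was at 1.13 and 0.86 TPM, and Cd3e had 2 reads and 0.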

How the data were processed

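Total RNA of left cerebral cortex from 2 mice (1 group, n = 2) was read from 3 tables per library. The authors made expected counts, per gene and per transcript, by aligning reads to the transcriptome (assembly mm10, annotation M21), as the deposited README files state. TPM in those tables was scaled by the authors over all rows, spike-ins included, per the file headers. The bounds of the credible intervals of TPM are deposited signal values whose level is not stated in the files. For the alignment-free tables the authors derived estimated counts and TPM directly from reads, per the deposited README files; here they were summed per gene. Aligner, counter and versions: not given in the sources used here. Genes were matched to GENCODE M21 (all 55536 rows). Reads were quantified against the mm10 reference, and alleles of the hybrid were not separated.

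From these, detection (1 TPM in both libraries), role medians, within-library ratios of TPM + 0.1 and transcript shares were computed. Ratios between libraries used edgeR 4.0.16 TMM factors on rounded expected counts, with 0.5 added and exact conditional binomial 95% intervals, for genes with a mean of 20 reads or more. The ratio step was tested on simulated counts, and the search for motif matches on a short made-up sequence. The motif counts by role were not tested in this way. DESeq2 1.42.0 size factors, total reads, ERCC totals, the alignment-free tables, other thresholds and leaving out a library were alternatives. Scripts ran in R 4.3.3 and Python 3.11.15 (pandas 2.3.3, numpy 2.4.6, matplotlib 3.10.9, scipy 1.17.1). The members and lists were chosen with earlier results of these data known. All 40 members are named; of each other list, the 3 highest genes, the lowest and those under 1 TPM in a library are named, as are pseudogenes named for a member and overlapping genes that bear on a level. Some genes that this rule takes are left out of the text.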

Additional observations from a re-analysis of the deposited data

How the results depend on the processing

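Of 497 alternative values, 416 stayed within the spread between animals, the counting interval or 1.5 times a count. That number includes values that could not fall outside. With 2 libraries, leaving 1 out always stays within the SD for role medians, pair ratios and coding shares. Role medians moved together: in the alignment-free tables they were 27.1 TPM (inhibitors), 16.2 (G1 genes), 7.01 (replication) and 2.86 (mitosis), and rescaled over nuclear protein-coding genes 38.5, 19.4, 9.19 and 3.87. In protein-coding transcripts alone, an alternative chosen after seeing the data, the G1 median was 8.69 TPM and the mitosis median 1.74 TPM. The order of the 4 roles was kept in each of these. Only the alignment-free values and those of protein-coding transcripts could have changed it. Rescaling treats all genes of a library alike, and the medians of either library alone are those given in the results above. Members detected numbered 13 at 5 TPM. Leaving out a library gave role medians of 1.91 to 1.93, 4.37 to 4.76, 9.45 to 9.80 and 18.3 to 19.995 TPM. Members 1.5-fold or more apart were 2 in the alignment-free counts (Ube2c and Tyms), 2 with no filter on low counts (Ube2c and Cdc6), 0 at a mean of 100 reads or more and 0 at 2-fold. Per kilobase of merged exons, also chosen after seeing the data, Rrm1 over Rrm2 turned to -0.44, Top2a over Mki67 to -0.57, Ccnb1 over Ccnb2 to -1.04 and Cdk2 over Cdk1 to 0.32 (log2), and 12 of 16 pairs kept their sign in both libraries; with alignment-free values this number was 15. The summed replication ratio was 0.055 (log2) in the alignment-free counts. Replication promoters with CCAAT numbered 5 on the gene's strand alone, and those with CHR 1 in a window of 150 bases before to 50 after the start. The causes were not tested. Cdc6, with 10 and 16 reads, was the only member under a mean of 20, and the mitosis genes had 33 to 545 reads each. No paired analysis was possible because there is 1 group.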

Other observations

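Cdt1 lies inside the annotated span of Gm20388, a protein-coding row on the same strand that shares none of its exon bases. Gm20388 had 320.7 reads in library 1 and 0.04 in library 2, while Cdt1 had 76 and 98; the row was singled out after its values were seen. Tnnc2, which shares 22.8% of the exon bases of Ube2c on the opposite strand, had 1 and 2 reads, against 34 and 58 for Ube2c.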
